A study of Homo sapiens with 8 samples.

Results

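A set of 9 genes of the p53 pathway were followed through RNA sequencing of 4 sublines of MDA-MB-231 cells, a human triple-negative mammary carcinoma line whose p53 is mutant. They were chosen by name as *MDM2*, *MDM4*, *CDKN1A*, *GDF15*, *SESN1*, *TP53I3*, *ZMAT3*, *RRM2B* and *BTG2*, and make up 9 of the 36991 genes in the table. Of the 9, 8 passed the filter on low values, which asked for 2 or more of the 8 libraries with an FPKM (fragments per kilobase of transcript, scaled to library size) of 1 or more. *BTG2*, which encodes an antiproliferative regulator of mRNA decay, was listed at 0 in all 8 and was not tested. *SESN1* passed only through its pair of WT OE libraries.

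p53 is a transcription factor that is held low in unstressed cells by the ubiquitin ligase MDM2 and its partner MDM4, and *MDM2* is itself one of its targets, which closes a feedback loop. After DNA damage p53 switches on genes that halt the cell cycle, repair DNA, buffer oxidation or trigger death. Many of these genes also answer to other factors, and in cells with mutant p53 their levels need not follow p53 at all. DAXX, the protein that was altered in these lines, is a histone chaperone and transcriptional regulator known to bind p53 and MDM2.

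The control line carried a scrambled shRNA, the KD line an shRNA against *DAXX* driven by the *H1* promoter, the WT OE line a wild-type *DAXX* cDNA driven by the cytomegalovirus immediate early promoter, and the DSM OE line a *DAXX* cDNA behind the same promoter with both of its SUMO-interacting motifs disabled. All were made by lentiviral transduction with puromycin selection, each is a single line, and none of the 8 libraries came from cells with an empty cDNA vector, so both OE lines were set against the scrambled shRNA. Each line gave 2 libraries. The series design states duplicate cultures, the treatment notes state triplicates, and "WT" appears as well in the titles given to the DSM OE pair. The p-values therefore measure the spread between these libraries, which may be technical in part.

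*DAXX* mRNA, the check on the labels, was at an FPKM of 25.3 and 37.4 (control), 8.60 and 7.30 (KD), 158 and 283 (WT OE) and 64.6 and 93.8 (DSM OE). Both WT OE libraries lay above both DSM OE libraries, by 1.43 on the log2 scale (adjusted p = 0.122, limma), and FPKM pools the endogenous transcript with the introduced one. The sums of FPKM ran from 162318 to 166886 per library, and the relative depth, read from the low values, from 0.918 to 1.17. Among markers of the parental line *MSN*, *AXL* and *CAV1* stood at 35.8 or more in every library, while the luminal markers *ESR1* and *PGR* and the T cell marker *CD3E* were listed at 0. Not all markers followed that split: the epithelial keratin genes *KRT19* and *KRT8* stood at 81.8 to 297 and 22.9 to 47.8, *ERBB2* and *EPCAM* at 0.873 to 5.42, the monocyte gene *CD14* at 1.24 to 5.05, and the mesenchymal gene *SPARC* under 1 throughout. *VIM* stood at 39.1 in KD replicate 1 and between 682 and 1328 in the other libraries, which shows how far 2 libraries of 1 line could part for a single gene.

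p53 binds a pair of abutting half-sites of 10 bases each, and the promoter sequences of the members show which of them carry such a pair close to a transcription start. Windows from 250 bases before to 50 bases after each start, taken from RefSeq on GRCh38.p14, were found for 8 members (14 windows). *RRM2B* had none and was not searched. A p53 full site, counted on either strand with at most 3 of 20 bases off the consensus, lay in windows of *MDM2*, *GDF15* and *SESN1*, and in 5.2% of all 35116 RefSeq windows. The windows with matches are printed 5' to 3' on the strand of each gene, with the matched 20 bases in capitals, because these 3 are the members with a match and *MDM2* is the feedback target.

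MDM2, downstream start, chr12:68808767-68809066, plus strand: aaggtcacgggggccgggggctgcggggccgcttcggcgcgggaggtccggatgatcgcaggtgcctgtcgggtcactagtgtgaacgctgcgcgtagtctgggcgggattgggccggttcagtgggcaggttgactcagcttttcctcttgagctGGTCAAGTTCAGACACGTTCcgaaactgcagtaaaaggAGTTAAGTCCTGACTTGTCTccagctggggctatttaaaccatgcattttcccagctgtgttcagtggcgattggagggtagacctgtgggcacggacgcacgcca
GDF15, chr19:18385908-18386207, plus strand: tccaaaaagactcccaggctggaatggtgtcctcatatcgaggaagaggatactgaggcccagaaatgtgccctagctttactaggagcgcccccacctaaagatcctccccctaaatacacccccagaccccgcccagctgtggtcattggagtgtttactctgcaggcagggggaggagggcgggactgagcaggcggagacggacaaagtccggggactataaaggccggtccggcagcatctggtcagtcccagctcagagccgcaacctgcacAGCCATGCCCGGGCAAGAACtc
SESN1, chr6:109008939-109009238, minus strand: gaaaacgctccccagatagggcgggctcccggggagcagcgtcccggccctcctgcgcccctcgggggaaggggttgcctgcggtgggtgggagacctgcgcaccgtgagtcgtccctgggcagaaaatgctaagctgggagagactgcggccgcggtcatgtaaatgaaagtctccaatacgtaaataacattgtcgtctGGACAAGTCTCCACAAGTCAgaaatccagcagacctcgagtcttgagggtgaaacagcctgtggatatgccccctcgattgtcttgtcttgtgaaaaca

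The *MDM2* window surrounds its downstream start, known as P2, which lies in the first intron and is the p53-responsive promoter of the gene. It held 2 matches, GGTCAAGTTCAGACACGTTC at chr12:68808923-68808942 with 2 bases off the consensus and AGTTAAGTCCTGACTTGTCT at chr12:68808961-68808980 with 3. They begin 94 and 56 bases before the start (positions -94 and -56). An overlapping *MDM2* window, chr12:68808774-68809073, held the same 2 matches at -101 and -63 and is not printed. The windows at the upstream start of *MDM2* held none. The *GDF15* match, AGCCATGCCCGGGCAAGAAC at chr19:18386186-18386205, had 3 bases off the consensus and began at +29, inside the first exon. The same window held the TATA box TATAAA, searched only on the strand of each gene, at -29, a hexamer found in 7.33% of all windows. The *SESN1* match, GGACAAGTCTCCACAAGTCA on the minus strand at chr6:109009018-109009037, began at -49 with 3 bases off, and its first 10 bases fitted the half-site consensus in full, as 6.63% of all windows do somewhere. No member window held the cyclic AMP response element TGACGTCA, found in 1.85% of all windows. A match is a description of letters and not a measured site, and windows without one say nothing of sites that lie farther away.

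*GDF15* was the only member that passed the test in any comparison, and its mean FPKM differed by up to 12.9-fold between lines. It encodes a secreted cytokine of the TGF-beta family that signals through GFRAL and rises with many kinds of cell stress. Its FPKM was 14.3 and 16.7 (control), 1.65 and 1.20 (KD), 5.56 and 3.90 (WT OE) and 17.1 and 19.6 (DSM OE). No library of one line overlapped those of another, and the order ran from KD through WT OE to control and DSM OE. Knockdown and wild-type overexpression of *DAXX* thus both went with less *GDF15* mRNA than in control, and the mutant did not. In KD 2 of the 5 tested luminal and epithelial markers were also called lower than in control, with log2 fold changes of -1.29 for *KRT19* and -0.78 for *EPCAM*, and 1 of the 2 tested leukocyte markers higher, *CD14* by 1.31. The summed FPKM of the 9 luminal and epithelial markers was 118 to 124 in KD and 243 to 338 in the other lines, that of the 5 leukocyte markers 5.06 to 5.16 in KD and 1.26 to 3.70 elsewhere, with *ESR1*, *PGR* and *CD3E* at 0 in every library. In KD *KRT19* alone stood at 95.2 and 81.8 and *CD14* at 5.05 and 4.76, so these sums mostly repeat 2 genes. *KRT19*, *EPCAM* and *CD14* were called the opposite way in WT OE and DSM OE against KD. In DSM OE against KD *GATA3* was called lower (0.276 and 0.232, against 1.41 and 1.32) and *LYZ* higher. *LYZ* passed the filter only through its DSM OE libraries, so its call is no test of that line. Of these 2 lists 0 markers were called in either cDNA line against control. At an unadjusted p under 0.05 limma gave 0 in WT OE. In DSM OE it gave 1 luminal or epithelial marker higher and 1 lower, and 2 leukocyte markers higher, *LYZ* included. Of 8 tested mesenchymal markers 1 was called higher in WT OE and 1 lower in DSM OE, against control. Of 3 tested fibroblast and stromal markers 1 was called lower in each cDNA line. Neither list had a call in KD. *COL3A1*, of the latter list, stood at 2.0 to 2.54 in control and KD and at 0.00306 to 0.0181 in the cDNA lines. The part of these moves in the values of *GDF15* was not tested. The gene (ENSG00000130513) lies on chromosome 19 from 18386158 to 18389176 on GRCh38.p14 and has 1 curated RefSeq transcript.

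**Figure D1:**
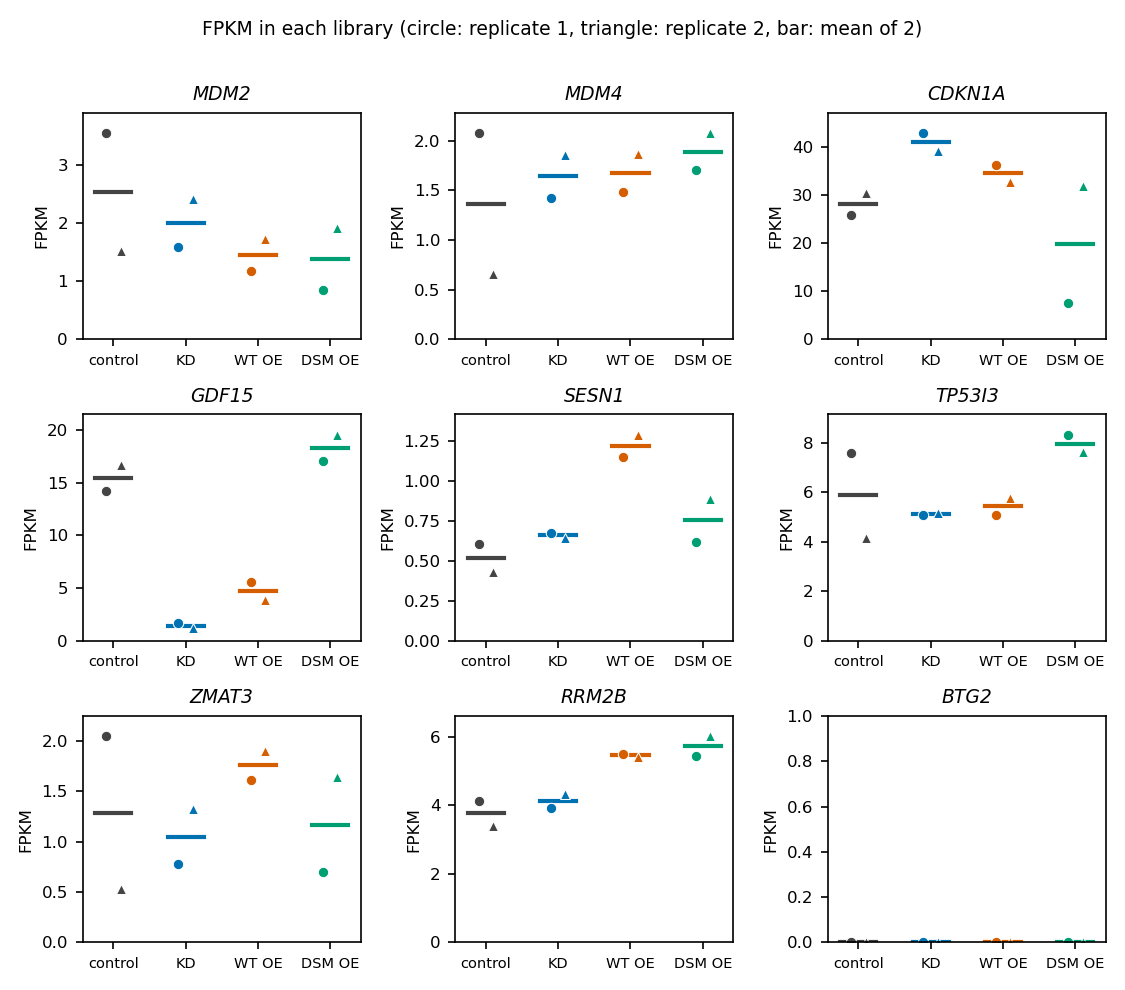
FPKM of the 9 genes in each of the 8 libraries, with the 4 lines on the horizontal axis, circles for replicate 1, triangles for replicate 2 and a bar at the mean of 2. *GDF15* separates KD (1.20 and 1.65) and WT OE (3.90 and 5.56) from control and DSM OE, *CDKN1A* has a single low library at 7.59 in DSM OE, and *BTG2* is at 0 throughout.

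The level of *GDF15* fell by 2.77 in KD on the scale of log2(FPKM + 1) used for every fold change here (standard error 0.19, adjusted p = 0.00132, limma with Benjamini-Hochberg adjustment over 10465 genes). In mean FPKM this was 10.9-fold lower. In WT OE it fell by 1.54 (standard error 0.19, adjusted p = 0.0174 from limma), or 3.28-fold in mean FPKM. In DSM OE the difference from control was 0.23 with a 95% interval of -0.24 to 0.69 (adjusted p = 0.485 from limma), so the neighbours control and DSM OE did not differ beyond their spread. These 3 comparisons share the control libraries.

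Between the altered lines, *GDF15* was higher by 3.0 in DSM OE than in KD (adjusted p = 0.000864, limma) and higher by 1.23 in WT OE than in KD (adjusted p = 0.0155, limma). It was lower in WT OE than in DSM OE, with a log2 fold change of -1.77 (adjusted p = 0.0220, limma), or 3.87-fold in mean FPKM. The KD calls against control and DSM OE held with every library left out in turn, from -2.90 to -2.64 and from 2.86 to 3.13. The others were narrower: against control the WT OE call was lost when WT OE replicate 2 or any one control library was left out (-1.75 to -1.33), that against DSM OE without any library other than WT OE replicate 1 (-1.98 to -1.55), and that against KD without either KD library or WT OE replicate 1 (1.02 to 1.44).

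**Figure D2:**
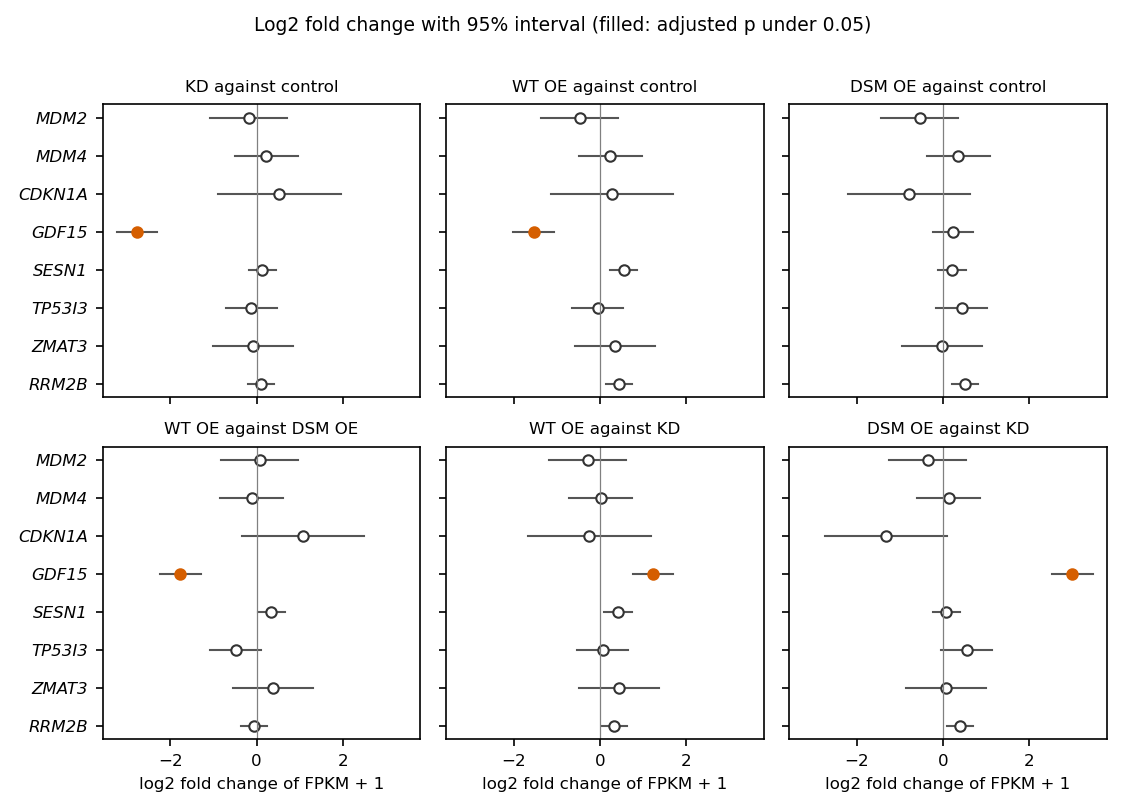
Log2 fold change of FPKM + 1 for the 8 tested members in each of the 6 comparisons, as points with 95% intervals from limma, filled where the adjusted p was under 0.05. *GDF15* alone is filled, in all but DSM OE against control, and the interval of *CDKN1A* is the widest.

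Across the 8 libraries and 5347 other genes with a mean FPKM of at least 5, the pattern of *GDF15* was most like that of *AREG* (Pearson r = 0.98), *ID1* (0.98) and *MYL9* (0.97). *AREG*, which encodes the EGF-receptor ligand amphiregulin, stood at 8.42 and 8.66 (control), 2.67 and 2.59 (KD), 5.09 and 4.40 (WT OE) and 13.3 and 11.4 (DSM OE). *ID1* and *MYL9* encode an inhibitor of helix-loop-helix factors and a myosin light chain. The most opposite gene was *EBNA1BP2*, which encodes a ribosome biogenesis factor (r = -0.99), at 27.5 and 28.7 in control and 38.6 and 40.3 in KD. These are descriptions over 8 points that come as 4 pairs.

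The negative regulators of p53 were expressed at low levels and no difference in them passed the test. *MDM2* (ENSG00000135679, chromosome 12 from 68808172 to 68850686) had an FPKM of 3.56 and 1.52 (control), 1.59 and 2.42 (KD), 1.18 and 1.74 (WT OE) and 0.852 and 1.92 (DSM OE). Control replicate 1 was the highest library and the lines overlapped. The log2 fold changes from control were -0.19 for KD, -0.47 for WT OE and -0.54 for DSM OE, with a standard error of 0.36 and adjusted p from 0.387 to 0.809 (limma). The interval in DSM OE reached from -1.43 to 0.35, so differences of that size in *MDM2* were not detectable here. *MDM4* (ENSG00000198625, chromosome 1 from 204516406 to 204558120), the partner that blocks p53 without ligase activity of its own, stood at 2.08 and 0.660 (control), 1.43 and 1.86 (KD), 1.49 and 1.87 (WT OE) and 1.71 and 2.08 (DSM OE). Here control held both the highest and the lowest library, and the 6 fold changes lay between -0.11 and 0.35.

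*CDKN1A*, which encodes the cyclin-dependent kinase inhibitor p21 and is the classic arrest target of p53, was the most abundant member. It lies on chromosome 6 from 36676463 to 36687332 (ENSG00000124762). Its FPKM was 25.9 and 30.4 (control), 42.8 and 39.1 (KD), 36.2 and 32.7 (WT OE) and 7.59 and 31.9 (DSM OE). KD lay above WT OE and WT OE above control with no overlap, and the DSM OE libraries lay far apart. The log2 fold changes were 0.53 in KD (95% interval -0.89 to 1.95), 0.29 for WT OE and -0.79 for DSM OE, all with a standard error of 0.58, and adjusted p was 0.640, 0.824 and 0.427 (limma).

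DSM OE replicate 1 decided what *CDKN1A* showed in that line. The gap between the DSM OE libraries was 1.94 on the log2 scale, and only 1.56% of the tested genes lay as far apart there. Leaving out a DSM OE library makes that line an arm of 1 library, which the fit takes to vary like the other lines, so the p-values carry no spread of its own. Without DSM OE replicate 2 the fold change was -1.76 against control (adjusted p = 0.0145, limma), -2.29 against KD (adjusted p = 0.00583) and 2.04 for WT OE against DSM OE (adjusted p = 0.0220), while without replicate 1 the first of these turned to 0.18. With both libraries, DSM OE against KD was -1.32 (95% interval -2.74 to 0.10, adjusted p = 0.179).

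*SESN1* was highest in WT OE and *RRM2B* in the cDNA lines, and *RRM2B* did not pass the test. *SESN1* (ENSG00000080546, chromosome 6 from 108984309 to 109094846) encodes sestrin 1, which restrains mTORC1 and lowers peroxides. It stood at 0.606 and 0.430 (control), 0.676 and 0.646 (KD), 1.15 and 1.29 (WT OE) and 0.621 and 0.891 (DSM OE). Both WT OE libraries lay above the other 6, and DSM OE overlapped KD. Since the gene entered the fit only through its WT OE libraries, no test of WT OE is given, and the log2 fold changes of WT OE, 0.55 against control, 0.42 against KD and 0.34 against DSM OE, are a description. At an FPKM near 1 the added 1 compresses the change, and in mean FPKM WT OE was 2.36-fold above control.

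*RRM2B* (ENSG00000048392) encodes the p53-inducible small subunit of ribonucleotide reductase, which supplies nucleotides for DNA repair. Its FPKM was 4.12 and 3.41 (control), 3.91 and 4.32 (KD), 5.50 and 5.42 (WT OE) and 5.43 and 6.0 (DSM OE). Every cDNA library lay above every shRNA library. The log2 fold change against control was 0.50 in DSM OE (95% interval 0.20 to 0.80, adjusted p = 0.0555, limma) and 0.44 in WT OE (adjusted p = 0.104), and against KD it was 0.39 in DSM OE (adjusted p = 0.0820) and 0.34 in WT OE (adjusted p = 0.137). WT OE and DSM OE overlapped, with a difference of -0.06 and an interval of -0.36 to 0.24.

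*TP53I3* and *ZMAT3* gave no call. *TP53I3* (ENSG00000115129, chromosome 2 from 24077433 to 24084834), which encodes a quinone oxidoreductase linked to p53-dependent oxidative stress, had an FPKM of 7.60 and 4.17 (control), 5.09 and 5.17 (KD), 5.08 and 5.79 (WT OE) and 8.32 and 7.61 (DSM OE). DSM OE held the 2 highest libraries, the lower of them just above control replicate 1. Its largest difference was 0.55 for DSM OE against KD (adjusted p = 0.179, limma), which passed only with a control library left out (adjusted p = 0.0448 and 0.0444), although neither belongs to that comparison. *ZMAT3* (ENSG00000172667, chromosome 3 from 179017223 to 179072513), which encodes an RNA-binding zinc finger protein, stood at 2.04 and 0.530 (control), 0.776 and 1.32 (KD), 1.62 and 1.90 (WT OE) and 0.700 and 1.64 (DSM OE). Control again held both extremes, and its 6 fold changes lay between -0.09 and 0.44.

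**Figure D3:**
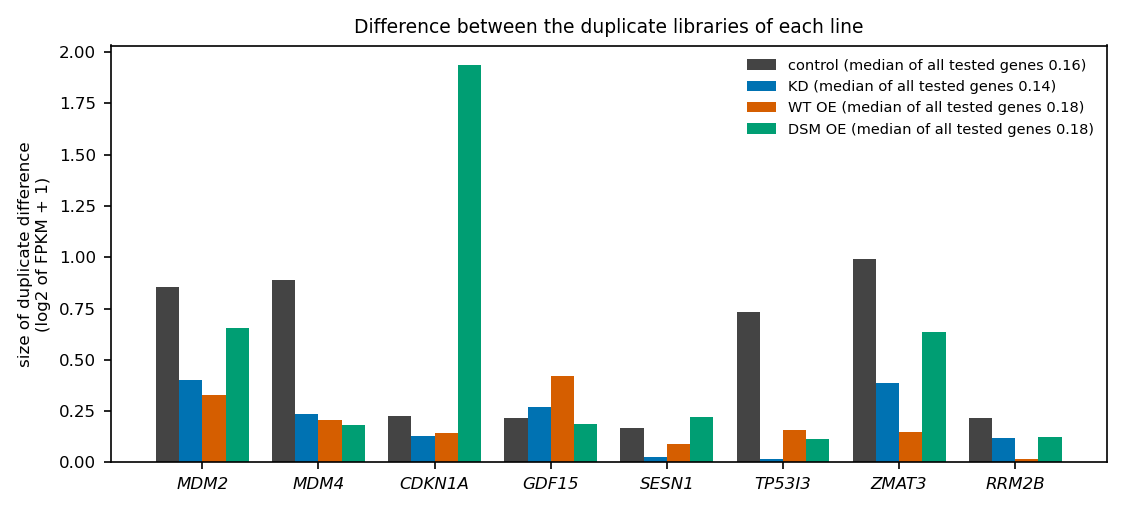
Size of the difference between the duplicate libraries of each line for the 8 tested members, in log2 of FPKM + 1, with the median over all tested genes of each line in the key. Bars of *MDM2*, *MDM4*, *TP53I3* and *ZMAT3* in control lie between 0.74 and 0.99, and that of *CDKN1A* in DSM OE reaches 1.94.

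The 2 control libraries lay apart for 4 members. Replicate 1 was above replicate 2 by 0.86 for *MDM2*, 0.89 for *MDM4*, 0.74 for *TP53I3* and 0.99 for *ZMAT3*, where the median size over all tested genes was 0.16 and between 5.41% and 8.40% of genes lay as far apart. In the other lines the median was 0.14 to 0.18. *MDM2*, *MDM4*, *ZMAT3* and *CDKN1A* have 6, 7, 10 and 12 curated RefSeq transcripts, and the remaining tested members have 1 to 3. Over all tested genes the median difference between duplicates was 0.18 for genes with 1 transcript or fewer and 0.24 for those with 10 or more. Whether the number of transcripts played a part in the spread of the members was not tested.

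The calls among the members were those of a single gene, so their counts say nothing of the members as a group. In KD 0 of the 8 tested members were called higher and 1 lower, where 3.51% and 3.69% of all 10465 genes were called in those directions. In WT OE the counts were 0 and 1, against 2.49% and 2.62% of all genes, and in DSM OE 0 and 0, against 5.51% and 5.5%. At an unadjusted p under 0.05 limma gave 0 higher and 1 lower in KD, 2 and 1 in WT OE (*SESN1*, *RRM2B* and *GDF15*), and 1 and 0 in DSM OE (*RRM2B*). The place of *SESN1* in that count of WT OE rests on the filter it passed through the same libraries.

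Between the altered lines, WT OE against DSM OE gave 0 members higher and 1 lower, where 0.946% and 0.65% of all genes were called. WT OE against KD gave 1 higher and 0 lower, beside 5.78% and 5.91%, and DSM OE against KD 1 higher and 0 lower, beside 8.04% and 8.83%. Each of these calls was *GDF15*. Over control, the median fold change of the 8 members was 0.01 for KD, 0.26 for WT OE and 0.22 for DSM OE, while that of all genes was 0.03, 0.02 and 0.02. *SESN1* is among the 8. These comparisons share libraries with those above.

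Other p53 target genes gave few calls over control, and the counts of calls do not by themselves set the lines apart. Of 61 listed for 5 roles, 50 were tested. In KD 2 were higher and 2 lower (all genes 3.51% and 3.69%), in WT OE 0 and 0 (7 and 6 at an unadjusted p under 0.05, limma, and all genes 2.49% and 2.62%), and in DSM OE 5 and 3 (all genes 5.51% and 5.5%). Their median fold changes over control were 0.11, -0.01 and 0.06. With each library left out in turn the counts ran from 0 to 2 higher and 0 to 1 lower in KD, from 1 to 3 and 0 to 2 in DSM OE, and stayed at 0 in WT OE.

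**Figure D4:**
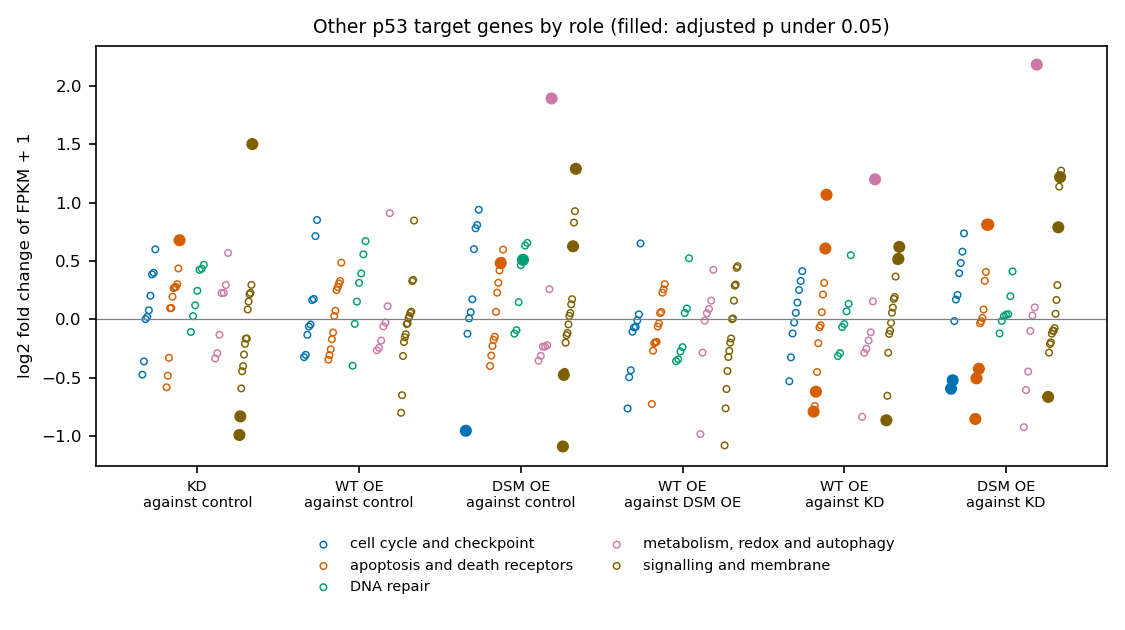
Log2 fold change of FPKM + 1 for the 50 tested p53 target genes outside the members, by role and comparison, filled where the adjusted p was under 0.05. Points lie on both sides of 0 in each comparison, with no filled point in WT OE against control or against DSM OE, and the highest point is *SESN2* at 2.18 in DSM OE against KD.

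*SESN2*, the sestrin gene related to *SESN1* and known also as a target of the stress factor ATF4, rose most. Its FPKM was 5.97 and 8.55 (control), 6.04 and 5.32 (KD), 16.8 and 12.2 (WT OE) and 29.0 and 29.6 (DSM OE). KD overlapped control, and both cDNA lines lay above them. The fold change was 1.89 in DSM OE over control (standard error 0.21, adjusted p = 0.00782, limma), 2.18 in DSM OE over KD (adjusted p = 0.00309) and 1.20 in WT OE over KD (adjusted p = 0.0207). In WT OE over control it was 0.91 (adjusted p = 0.0679). Both DSM OE calls held with each library left out.

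Among death and membrane genes, *CD82*, which encodes a tetraspanin that restrains metastasis, rose by 1.5 in KD and by 1.29 in DSM OE, and *TGFA*, which encodes a ligand of the EGF receptor, fell by 0.99 and 1.09 in the same lines (adjusted p from 0.0121 to 0.0312, limma). In WT OE their values were 0.85 and -0.80 (adjusted p = 0.0652 and 0.0632). *TNFRSF10A*, which encodes a TRAIL death receptor, rose by 0.68 in KD, and *PHLDA3*, which encodes an inhibitor of AKT, fell by 0.83 in KD. In DSM OE *RAP2B*, a small GTPase gene, rose by 0.63, the ubiquitin ligase gene *RNF144B* by 0.51 and *PERP*, which encodes a desmosome and apoptosis protein, by 0.48. *SFN*, which encodes the checkpoint protein 14-3-3 sigma, fell by 0.95 there and the phosphatase gene *DUSP14* by 0.48. Each of these calls was lost without at least 1 of the libraries.

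Against KD, 5 of the 50 were higher and 3 lower in WT OE, and 5 were higher and 6 lower in DSM OE (0 to 4 and 0 to 3, and 4 to 6 and 1 to 3, with a library left out). Against KD, WT OE had 5.78% of all genes higher and 5.91% lower, while DSM OE had 8.04% and 8.83%. *SESN2*, *TP53INP1*, *RAP2B*, *PERP* and *PHLDA3* were the higher genes in both, and *TNFRSF10A*, *IER5* and *AEN* were lower in both, the 2 comparisons having the KD libraries in common. *TP53INP1* encodes a stress-induced cofactor of p53, *AEN* a nuclease of apoptosis and *IER5* an immediate-early response protein. *SFN*, the polo-like kinase gene *PLK2* and *TRIAP1*, which encodes an inhibitor of apoptosis, were called lower in DSM OE and not in WT OE. The difference between the cDNA lines themselves was 0.65 for *SFN* (adjusted p = 0.0741, limma), and 0 of the 50 passed the test there (5 higher and 7 lower at an unadjusted p under 0.05). *TNFRSF10A* stood at 17.9 and 17.4 in KD and at 8.90 to 11.1 in the other 6 libraries.

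Of 26 genes for the p53 family and its regulators, 23 were tested. In KD and WT OE over control 0 were called (1 higher and 1 lower at an unadjusted p under 0.05 in each, limma). In DSM OE *HUWE1*, which encodes a ubiquitin ligase that can act on p53, rose by 0.60, the deacetylase gene *SIRT1* by 0.45, and *TP53BP2*, which encodes the cofactor ASPP2, fell by 0.66 (adjusted p = 0.0396, 0.0489 and 0.0330), 2 higher and 1 lower beside 5.51% and 5.5% of all genes. *TP53BP2* and the acetyltransferase gene *KAT5* were also lower in DSM OE than in KD, at -0.70 and -0.51. WT OE against KD and against DSM OE gave 0 calls (1 higher and 4 lower, and 2 and 2, at an unadjusted p under 0.05). Every one of these calls was lost without at least 3 of the 8 libraries. *CDKN2A*, whose product ARF blocks MDM2, was listed at 0 in all libraries, and *TP63* did not exceed 0.181.

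Genes of the ATF4 stress response, to which *GDF15* and *SESN2* also belong as known targets, were called higher over control mostly in DSM OE. The list was chosen with earlier results of these data known, so its counts are a description. Of 14 tested, 9 were higher and 0 lower in DSM OE over control, with a median of 0.86, 2 were higher and 1 lower in WT OE, and 0 were higher and 3 lower in KD. The shares of all genes in these directions were 5.51% and 5.5%, 2.49% and 2.62%, and 3.51% and 3.69%. The serine synthesis genes *PHGDH* and *PSAT1* and the asparagine synthetase gene *ASNS* rose by 2.10, 1.87 and 2.01 in DSM OE. In WT OE *PHGDH* and *PSAT1* rose by 1.55 and 1.22, whereas *TRIB3*, which encodes a pseudokinase, fell by 0.70. In KD *CHAC1*, which encodes an enzyme that degrades glutathione, the mTORC1 inhibitor gene *DDIT4* and the lipoprotein receptor gene *VLDLR* fell by 1.38, 0.63 and 0.56. DSM OE, with the list median of 0.86, had *GDF15* at 0.23 over control (adjusted p = 0.485, limma). For KD the list median was -0.42 and *GDF15* was at -2.77. WT OE had a list median of 0.14, whereas *GDF15* was lower than control there, at -1.54. Against KD, 7 were higher and 1 (*TRIB3*) lower in WT OE, and 10 higher and 1 (*ATF5*) lower in DSM OE, with *PHGDH*, *CHAC1* and *ASNS* the furthest in both. Both counts of higher genes include *ATF3*, which reached an FPKM of 1 only in the DSM OE libraries and WT OE replicate 2. Its place in them rests on the filter it passed through those libraries. WT OE against DSM OE gave 0 higher and 1 lower (*PSAT1*, -0.65), beside 0.946% and 0.65% of all genes. At an unadjusted p under 0.05 limma gave 1 higher and 11 lower there, beside 919 and 820 of all 10465 genes. The list median in that comparison was -0.56. The count of 9 ran from 2 to 6 with a library left out, and the part of these genes in the *GDF15* and *SESN2* values was not tested. Immediate-early genes, which respond to serum and handling, gave 2 higher in KD (*MYC* and *JUNB*), 1 in WT OE (*KLF10*), and 1 higher and 1 lower in DSM OE (*IER2* and *DUSP1*) out of 10 tested, with the same shares of all genes beside them. Against KD they gave *KLF10* higher and *MYC* lower in WT OE, *JUN* and *IER2* higher and *MYC* and *DUSP1* lower in DSM OE, and WT OE against DSM OE gave 0 (3 higher and 1 lower at an unadjusted p under 0.05, limma). In RNA from whole cultures, a change in the share of cells that transcribe a gene and a change in its level per cell cannot be told apart.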

How the data were processed

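RNA of 8 libraries, 2 for each of 4 lines, was analysed. The deposited values are FPKM, calculated by the authors, and were taken unchanged. The submitters' notes and the methods name HISAT2 for alignment to GRCh38, StringTie for assembly and limma, and the notes also name hg19. For the FPKM values the methods name Ballgown. For the step from several transcripts to a single gene value, the method was not given in the sources used here. Read counts were not analysed here, so depth is unknown, and only a relative depth was estimated from values under an FPKM of 0.1.

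Groups came from the sample labels. Of 36991 Ensembl identifiers, 35836 were matched to a symbol. Genes that reached an FPKM of 1 in 2 or more libraries (10465) were taken as log2(FPKM + 1), and the 4 line means were fitted with limma 3.58.1 in R 4.3.3 with a variance trend (4 residual and 1.863 prior degrees of freedom). P-values are two-sided and adjusted by Benjamini-Hochberg within each of 6 comparisons, with a threshold of 0.05. An exact permutation test of 2 against 2 cannot go below 0.333, and none was used. The fit was tried on simulated data.

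The members and gene lists were chosen with earlier results of these data known. All 9 members are named, with, from each list, the called genes of the largest changes (up to 3 per comparison) and every gene of a count of 5 or fewer. *AREG*, *ID1*, *MYL9* and *EBNA1BP2* are the closest 3 genes and the most opposite gene for *GDF15*. *PLK2*, *TRIAP1*, *CDKN2A*, *TP63* and the marker genes lie outside this rule and were named after their values were seen. Alternatives changed the pseudocount (0.1), the filter (none, or a mean FPKM of 5), the scaling (median or quantile), the trend, the robustness of the fit, the block, the lines fitted, the call rule (a fold change over 1.3 at an unadjusted p under 0.05) and the libraries, left out singly. Promoter windows, positions and transcript numbers come from RefSeq on GRCh38.p14.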

Additional observations from a re-analysis of the deposited data

How the results depend on the processing

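With 2 libraries a line, the calls of *GDF15* in KD against control and in DSM OE against KD kept their side of the threshold under each alternative run, while its calls in WT OE did not. Counts of members called changed as follows. With the replicate block the count lower was 0 for WT OE, both against control and against DSM OE (*GDF15*: -1.54, adjusted p = 0.051, and -1.77, adjusted p = 0.0721, limma). With the compared lines alone both were 0 too, and the count higher in WT OE against KD was 0. The replicate numbers did not pair the samples: the duplicate differences of 2 lines correlated between -0.061 and 0.043 over 10465 genes. A fold change over 1.3 at an unadjusted p under 0.05 gave 2 higher in WT OE against control (*SESN1* and *RRM2B*), 1 in DSM OE against control, 2 in WT OE against KD and 2 in DSM OE against KD. *SESN1* is in both WT OE counts. Its place there rests on the filter it passed only through the WT OE libraries and is not a test of WT OE.

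With each library left out, the count lower ran from 0 to 1 in WT OE and DSM OE against control, in WT OE against DSM OE and in DSM OE against KD, the count higher from 0 to 1 in WT OE against DSM OE and in WT OE against KD, and from 1 to 2 in DSM OE against KD. Leaving out a library removes 1 residual degree of freedom and leaves its line with 1 library, which is assumed to vary like the other lines. Members without a call changed sign as follows, and the cause was not tested. Against control, KD ran from -0.61 to 0.24 (*MDM2*), -0.22 to 0.67 (*MDM4*), -0.49 to 0.25 (*TP53I3*), -0.58 to 0.41 (*ZMAT3*) and -0.0028 to 0.21 (*RRM2B*). WT OE ran from -0.20 to 0.69 (*MDM4*), -0.42 to 0.31 (*TP53I3*) and -0.14 to 0.85 (*ZMAT3*). DSM OE ran from -0.092 to 0.80 (*MDM4*), -1.76 to 0.18 (*CDKN1A*) and -0.52 to 0.47 (*ZMAT3*). WT OE against DSM OE ran from -0.26 to 0.40 (*MDM2*) and -0.12 to 0.0062 (*RRM2B*), WT OE against KD from -0.097 to 0.14 (*MDM4*) and -0.012 to 0.15 (*TP53I3*), and DSM OE against KD from -0.035 to 0.19 (*SESN1*) and -0.26 to 0.38 (*ZMAT3*). A pseudocount of 0.1 turned *ZMAT3* in DSM OE to 0.022, and quantile normalization turned *MDM4* in WT OE against KD to -0.0086. Median and quantile scaling moved the median of all genes by at most 0.043 in size.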
